A study of Solanum lycopersicum with 12 samples.

Results

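Roots and young leaves of tomato plants (Solanum lycopersicum, labelled WT) that had been sprayed with the biostimulant PSI-475 were compared under salinity. The comparison rests on the 3 treated root and 3 treated leaf libraries, 6 of the 12 libraries in the series, chosen by their labels. The treated plants had PSI-475 sprayed on their leaves at 2.5 mL per L. The untreated plants, whose 3 root and 3 leaf libraries stand beside them here, were sprayed with water. Plants of all 4 groups were watered with 50 mM NaCl (5.8 dS per m), so no organ without salt is shown. The first spray fell on plants 65 days old, 1 day before the salt, the second after 27 days of salt, and organs were taken at 127 days, 2 h into the dark. The leaf libraries were made from young leaves, and the labels do not say whether these leaves had formed by the time of a spray.

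Leaves and roots divide the work of the plant. Leaf cells fix carbon in chloroplasts and draw on nuclear genes for light-harvesting proteins, photosystem subunits and the enzymes of the Calvin cycle, while root cells take up water and mineral ions, exclude or store sodium, and build the suberin and Casparian barriers that control entry to the xylem. Genes for translation, respiration and protein turnover are used in both organs. The deposited table lists loci by identifier only, and 0 of its 35976 identifiers were found in the RefSeq gene table used here. The photosynthesis, ion uptake and barrier genes could therefore not be looked up, the organ labels could not be checked against marker genes, and loci are described by their levels, their organ difference and the chromosome written in their identifiers.

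Of the 35976 loci, 19211 averaged 1 FPKM or more (fragments per kilobase of locus, scaled to library size) over the 6 treated libraries and were tested, and 16765 fell below. The tested loci comprised 18515 with identifiers of the tomato locus scheme, 148 with non-coding RNA identifiers and 548 numbered loci of neither kind. Library totals, recovered from the digits of the values, ran from 17144169 to 20595008 fragments in treated root and from 21010245 to 22993130 in treated leaf. Over the 19324 loci that averaged 1 FPKM or more over all 12 libraries, treated root libraries correlated with untreated root libraries at r = 0.887 to 0.896 and with treated leaf libraries at 0.603 to 0.619, on the log2(FPKM + 1) scale. Treated leaf libraries correlated with untreated leaf libraries at r = 0.962 to 0.971. Each r is taken across loci, and loci are no substitute for replicates. The median coefficient of variation between replicates, among loci with at least 200 fragments, was 5.69% in treated root and 6.26% in treated leaf. Whether each replicate is a plant of its own is not in the labels, and the spread that p-values rest on may be technical.

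Root and leaf of treated plants differed at most of the loci tested. In limma on log2(FPKM + 1), 15301 loci differed between treated root and treated leaf at a Benjamini-Hochberg adjusted p under 0.05, which is 79.6% of those tested. Of these, 8805 loci (45.8%) were higher in treated root and 6496 (33.8%) were higher in treated leaf. The balance of the 2 directions depended on how libraries were scaled to each other. The median difference over all loci, root minus leaf, was 0.163 on the log2 scale as deposited and 0.009 with median-of-ratios scaling, with which 7399 loci were higher in treated root and 7468 in treated leaf. In bulk tissue, fewer cells of a type and less RNA per cell cannot be told apart.

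**Figure D1:**
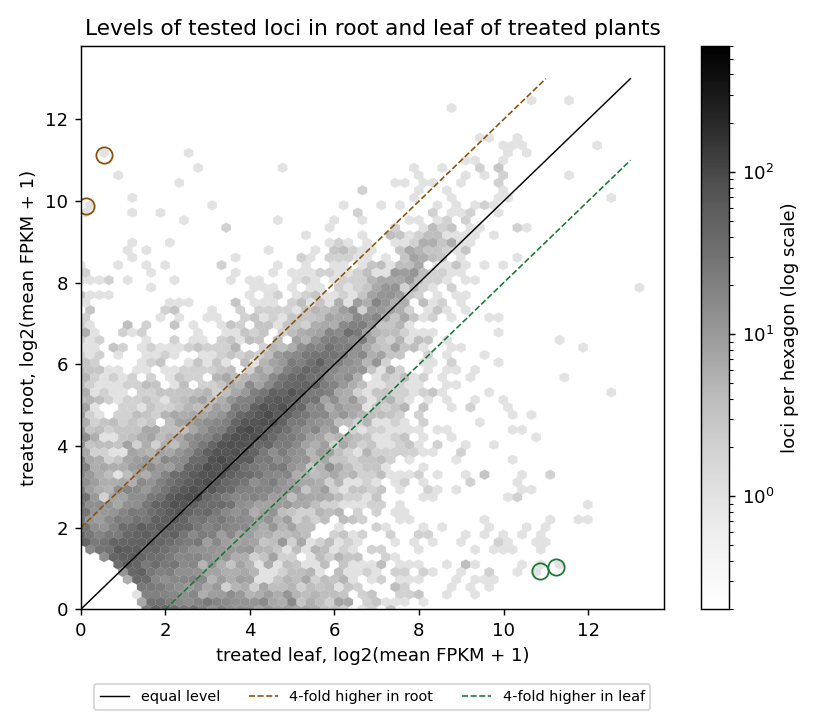
Mean levels of the 19211 tested loci in treated leaf (x axis) and treated root (y axis), both as log2(mean FPKM + 1), drawn as hexagons shaded by the number of loci on a log scale. The dashed lines mark 4-fold differences, and open circles mark the 2 loci furthest toward root and the 2 furthest toward leaf among named identifiers, which lie near the axes with 935 FPKM or more in 1 organ.

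The excess of root-higher loci came from small differences, and large differences pointed more often to leaf. Among called loci that differed by under 2-fold, 5589 were higher in treated root and 2737 in treated leaf. At 2 to 4-fold the counts were 1949 in root and 1816 in leaf. At 4 to 8-fold they were 684 in root and 941 in leaf, and at 8 to 32-fold 443 and 719, root first. At least 32-fold differences were found at 140 root-higher and 283 leaf-higher loci. In all, 1267 loci (6.6% of those tested) were at least 4-fold higher in treated root and 1943 (10.1%) at least 4-fold higher in treated leaf. With median-of-ratios scaling the counts were 1163 for root and 2075 for leaf, so more of the 4-fold differences pointed to leaf under both scalings. Folds here were taken on log2(FPKM + 1), and for loci low in 1 organ they are therefore too small.

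**Figure D2:**
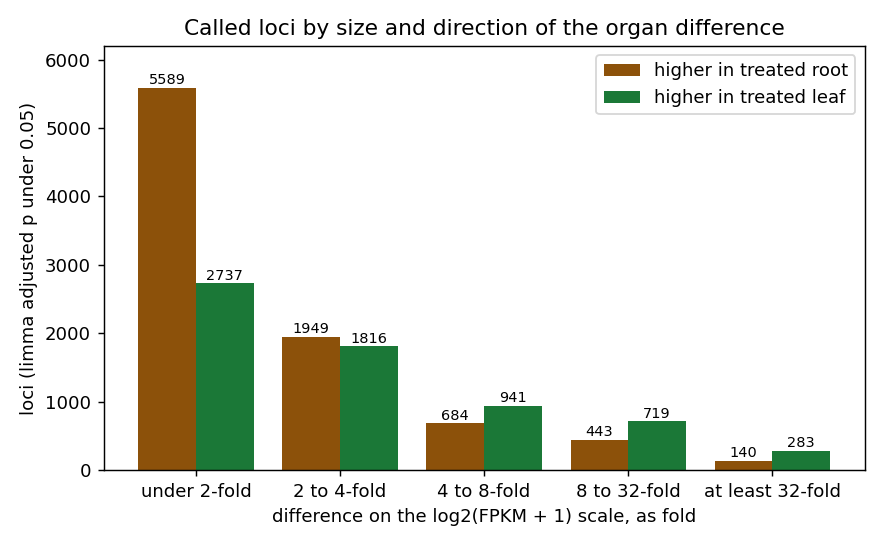
Number of loci with a limma adjusted p under 0.05 (y axis) by size of the organ difference (x axis), with bars for loci higher in treated root on the left of each pair and for loci higher in treated leaf on the right. Root-higher loci outnumber leaf-higher loci under 2-fold (5589 and 2737), and leaf-higher loci outnumber root-higher loci from 4-fold upward.

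At many loci the organ difference was smaller than 2-fold, although most of these loci were still called different. For 10216 loci, 53.2% of those tested, the 95% interval of the root minus leaf difference lay within 2-fold either way, and 6490 of these were nonetheless called. For 4093 loci (21.3%) the interval lay within 0.5 on the log2 scale, and 1215 of these were called. Of the 3910 loci that were not called, 3726 had an interval within 2-fold, and 57 had an interval wider than 4-fold from end to end, for which little can be said. The intervals are from limma and are not adjusted for the number of loci. On the log2(FPKM + 1) scale, differences at loci of low level are drawn toward 0.

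At least 1 FPKM was reached in all 6 libraries by 15466 loci. Another 1049 loci reached it in all 3 treated root libraries and in no treated leaf library, and 1359 in all 3 treated leaf libraries and in no treated root library. Fewer loci had no fragment at all in the other organ. In treated leaf, 177 of the tested loci had 0 fragments in all 3 libraries, and their median level in treated root was 5.7 FPKM. Against a floor of 3 fragments per library they were at least 49.8-fold higher in root at the median, and 50 of them at least 100-fold higher. In treated root, 147 tested loci had 0 fragments in all 3 libraries. Their median level in treated leaf was 5.32 FPKM, the bound was at least 27.1-fold at the median, and 18 were at least 100-fold higher in leaf. Of the 177 loci without fragments in treated leaf, 143 had none in untreated leaf either, and of the 147 without fragments in treated root, 64 had none in untreated root. The floor covers counting error only. Since tested loci had to average 1 FPKM over the 6 libraries, a locus without fragments in 1 organ passed only through its level in the other. The medians and bounds above are therefore set in part by that limit, and fainter loci of this kind are left out.

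Among identifiers of the tomato locus scheme, the 2 loci with the largest root-higher differences have neighbouring identifiers on chromosome 3. Solyc03g020060.3 had 2461, 2234 and 2049 FPKM in the treated root libraries, against 0.545, 0.368 and 0.46 FPKM in the treated leaf libraries. All 3 root libraries were far above all 3 leaf libraries, whose values rest on 10, 7 and 8 fragments. The difference was 10.59 on the log2 scale (SE 0.0792, limma adjusted p = 2.54e-11). Solyc03g020070.3 had 1091, 872 and 842 FPKM in treated root, against 0.166, 0 and 0.0877 FPKM in treated leaf. The root libraries again stood clear of the leaf libraries, which held 3 fragments in all. With so few fragments the fitted difference of 9.75 (SE 0.107, limma adjusted p = 7.14e-11) is a poor measure of the ratio. Over summed fragments the ratio of treated root to treated leaf was 11151, with an exact 95% counting interval from 3815 to 54077. The next tested identifier after this pair was also root-higher, at 260 FPKM in treated root and 0.0817 FPKM in treated leaf.

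On the log2(FPKM + 1) scale, the organ difference of this pair was of similar size in untreated plants. Solyc03g020060.3 averaged 1760 ± 69.7 FPKM in untreated root and 0.268 ± 0.413 FPKM in untreated leaf (SD, n = 3 each), a log2 difference of 10.49. The interaction, the organ difference in treated plants minus that in untreated plants, was 0.1 (SE 0.231, limma adjusted p = 0.707). For Solyc03g020070.3 the difference was 9.79 in untreated plants and the interaction was -0.05 (SE 0.168, limma adjusted p = 0.823). Leaf means of both loci lay under the 1 FPKM added before taking logs, for Solyc03g020070.3 at 0.0847 FPKM in treated and 0.0313 FPKM in untreated leaf (3 and 1 fragments). A change in leaf hardly shows on this scale, so whether the ratio of root to leaf was the same in treated and untreated plants cannot be told.

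The 2 loci of that scheme with the largest leaf-higher differences follow each other among the tested identifiers of chromosome 2, and in both the difference was wider in treated than in untreated plants. Solyc02g071020.3 had 1.17, 0.146 and 1.87 FPKM in treated root, against 2614, 2308 and 2329 FPKM in treated leaf. The groups did not overlap, and the second root library was well below the other root libraries, with 3 fragments against 25 and 46. The difference was -10.29 (SE 0.282, limma adjusted p = 4.91e-09). Solyc02g070935.1 had 1.27, 0.0632 and 1.42 FPKM in treated root, against 2042, 1714 and 1819 FPKM in treated leaf. It too was lowest in the second root library, with 1 fragment against 21 and 27. Its difference was -10.01 (SE 0.277, limma adjusted p = 5.23e-09).

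In untreated plants these loci were leaf-higher to a lesser degree. Solyc02g071020.3 averaged 1.04 ± 0.159 FPKM in untreated root and 395.6 ± 53.3 FPKM in untreated leaf (SD, n = 3 each), a difference of -7.60. Solyc02g070935.1 averaged 0.298 ± 0.0931 FPKM in untreated root and 176 ± 18.6 FPKM in untreated leaf (SD, n = 3 each), a difference of -7.09. The interaction was -2.69 (SE 0.346, limma adjusted p = 2.21e-05) for Solyc02g071020.3 and -2.92 (SE 0.336, limma adjusted p = 8.77e-06) for Solyc02g070935.1. Solyc02g071020.3 was higher in treated than in untreated leaf by 2.61 (limma adjusted p = 6.75e-06), and its change in root was -0.08 (limma adjusted p = 0.794). Solyc02g070935.1 was higher in treated leaf by 3.39 (limma adjusted p = 5.84e-07), and its change in root was 0.48 (limma adjusted p = 0.0929). Its root means of 0.919 FPKM in treated and 0.298 FPKM in untreated root (49 and 15 fragments) lay under the 1 FPKM added before taking logs. On this scale its change in root is drawn toward 0, and the size of its interaction is too large as a measure of the change in ratio.

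**Figure D3:**
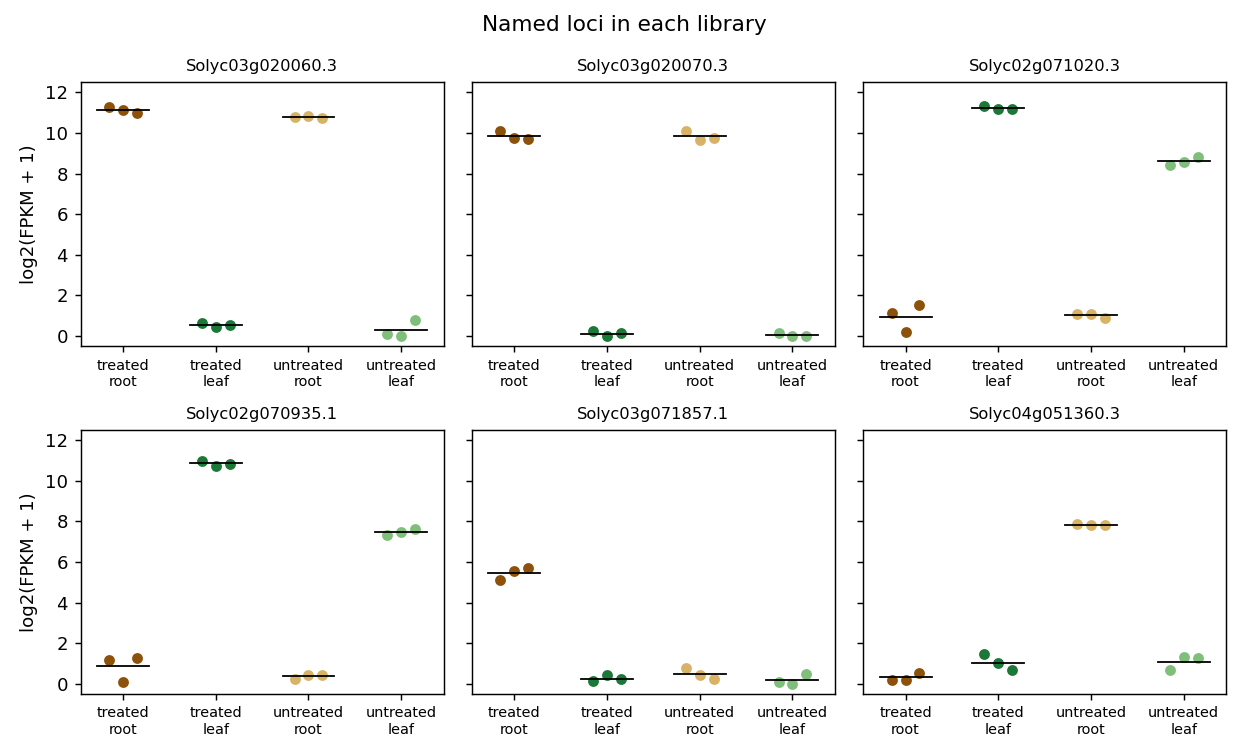
Level of each named locus in every library, as log2(FPKM + 1), with 1 point per library and a line at the group mean on that scale; the groups run from treated root through treated leaf and untreated root to untreated leaf. The 2 loci of chromosome 3 with the largest root-higher differences are high in root and near 0 in leaf in both treated and untreated plants, the 2 of chromosome 2 are higher in treated than in untreated leaf, and the last 2 loci differ between treated root and untreated root.

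The untreated libraries, which had no part in the calls made on treated plants, showed nearly all of the large organ differences in the same direction. Of the 1267 loci at least 4-fold higher in treated root, 1198 (94.6%) were also called root-higher in untreated plants, against 31.4% of all tested loci. Another 13 were called leaf-higher there, and 56 were not called. Of the 1943 loci at least 4-fold higher in treated leaf, 1879 (96.7%) were called leaf-higher in untreated plants, against 47.5% of all tested loci, and 32 were called root-higher. With median-of-ratios scaling 96.3% of the root-higher and 95.8% of the leaf-higher loci kept their direction. The median difference of the root-higher loci was 2.88 in treated plants, where they were chosen, and 2.34 in untreated plants. That of the leaf-higher loci was -3.06 in treated and -3.11 in untreated plants. Over all tested loci the median was 0.163 in treated and -0.214 in untreated plants as deposited, and this offset is contained in both pairs of medians.

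Among called loci of every size, the 4-fold loci included, the direction carried over less often than among the 4-fold loci alone. Of all 8805 loci called root-higher in treated plants, 4706 (53.4%) were called root-higher in untreated plants and 1806 (20.5%) leaf-higher. Of the 6496 called leaf-higher in treated plants, 5452 (83.9%) were called leaf-higher in untreated plants and 553 (8.51%) root-higher. With median-of-ratios scaling the shares that kept their direction were 67.5% on the root side and 76.6% on the leaf side, so the contrast between the sides was smaller. Of all tested loci, 37.5% were called root-higher and 40.4% leaf-higher in untreated plants with that scaling.

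The loci at least 4-fold higher in an organ took a large part of that organ's libraries. The 1267 root-higher loci held 15.3% ± 0.118 of the fragments of treated root and 1.57% ± 0.0121 of those of treated leaf (SD, n = 3 each). The 1943 leaf-higher loci held 1.58% ± 0.036 of the fragments of treated root and 29.2% ± 0.747 of those of treated leaf (SD, n = 3 each). These shares describe the choice of loci and were not tested. In the untreated libraries the root-higher loci held 13.5% ± 0.0327 in root and 2.02% ± 0.0341 in leaf (SD, n = 3 each). The leaf-higher loci held 1.78% ± 0.0091 in untreated root and 23.6% ± 0.165 in untreated leaf (SD, n = 3 each). In both cases untreated root and untreated leaf stood fully apart, with a p of 0.1 in an exact permutation test, 2-sided. Tests of 3 libraries against 3 cannot give a smaller p and so cannot reach 0.05.

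Expression was spread over loci to a similar degree in both organs of treated plants. In treated root 50% of the summed FPKM was held by 837, 844 and 823 loci, against 759, 869 and 829 loci in treated leaf. The ranges overlapped (exact permutation p = 0.8, 2-sided). In untreated plants the organs stood apart, with 672 ± 2 loci in untreated root and 993 ± 41.3 loci in untreated leaf (SD, n = 3 each, exact permutation p = 0.1, the smallest possible). Treated root lay above untreated root and treated leaf below untreated leaf in every library. The shares held by the top 10 and top 100 loci stood apart between treated root and treated leaf, while those of the top 1000 overlapped. The top 10 loci held 5.33% ± 0.144 of the summed FPKM in treated root and 7.11% ± 0.346 in treated leaf (SD, n = 3 each, exact permutation p = 0.1). The top 100 held 20.9% ± 0.219 and 23.0% ± 0.88 in treated root and treated leaf, and in untreated plants the order was the other way, with 23.1% ± 0.0282 in untreated root and 19.6% ± 0.586 in untreated leaf (SD, n = 3 each, exact permutation p = 0.1 for both). Counting the shares of the top 1000 loci, 8 such comparisons were made, none of which could reach 0.05.

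The most abundant loci of both treated organs were compared for their organ differences. Of the 100 loci with the highest mean in treated root, 37 were at least 4-fold higher there than in leaf, 36 differed by under 2-fold and 1 was at least 2-fold higher in leaf. Their median ratio of root to leaf level was 2.62. Of the 100 highest in treated leaf, 64 were at least 4-fold higher there than in root, 21 differed by under 2-fold and 11 were at least 2-fold higher in root. Their median ratio of leaf to root level was 54.0. In untreated plants the corresponding median ratios were 3.62 for the top of root and 16.7 for the top of leaf. The top 100 lists of treated root and treated leaf shared 31 loci, and those of untreated root and untreated leaf shared 33. Of the top 1000, 541 were shared between the treated organs and 454 between the untreated organs. These are descriptions of ranked lists and carry no test.

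**Figure D4:**
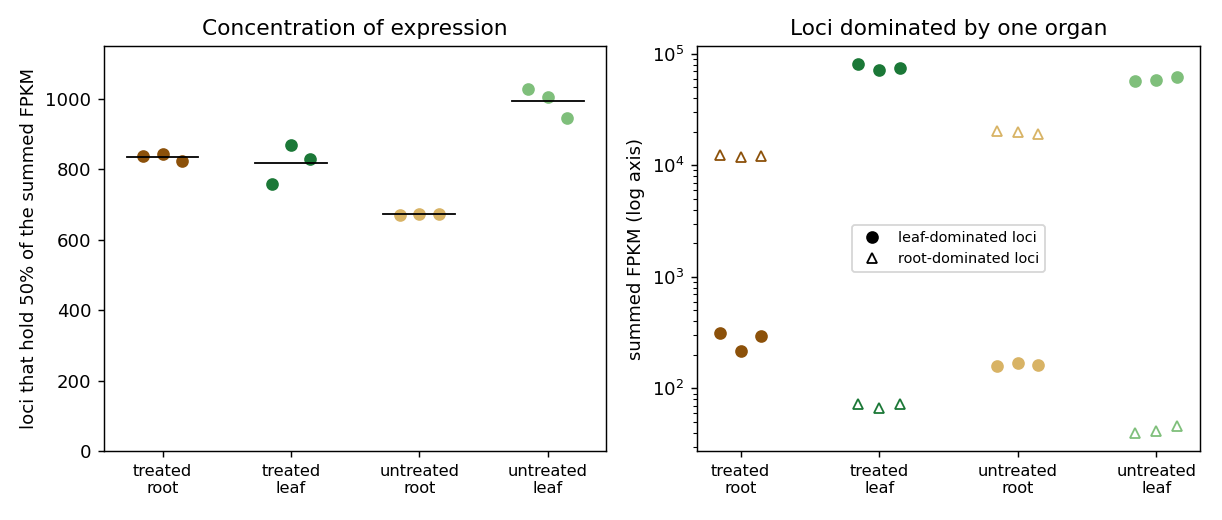
Left, the number of loci that hold 50% of the summed FPKM in each library; right, the summed FPKM (log axis) of 68 leaf-dominated loci (filled circles) and 30 root-dominated loci (open triangles) in each library, with 1 point per library. The treated root and treated leaf libraries overlap on the left (823 to 844 and 759 to 869 loci), while untreated root and untreated leaf do not; on the right the second treated root library has the lowest sum of leaf-dominated loci among the treated roots.

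Traces of leaf-dominated loci differed between the treated root libraries. From the untreated libraries 68 loci were chosen whose untreated leaf mean reached 200 FPKM and was over 100 times that of untreated root. Their summed level was 314, 218 and 296 FPKM in the treated root libraries, against 80488, 72102 and 74881 FPKM in the treated leaf libraries. In 55 of the 68 loci the second treated root library was the lowest of the 3. The share over all tested loci is not given here, and the 68 loci were read from the same 3 libraries and are not independent. The untreated root libraries had 158 to 170 FPKM, but the loci had been chosen for low values there. In the other direction, 30 root-dominated loci chosen the same way summed to 11804 to 12496 FPKM in treated root and 66.4 to 72.9 FPKM in treated leaf. The floor of the steepest leaf-higher differences therefore moved with the root library. Without treated root replicate 2 the difference of Solyc02g071020.3 was -9.92, and without replicates 1 and 3 it was -11.04. The source of these fragments was not tested. The counts of loci at least 4-fold apart were hardly touched: without treated root replicates 1 and 3 there were 1296 root-higher and 1964 leaf-higher loci, where the lone root library is assumed to vary like the leaf libraries.

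Organ-biased loci were found on every chromosome. Among the 12 chromosomes, between 5.54% (chromosome 1) and 8.05% (chromosome 6) of tested loci were at least 4-fold higher in treated root. Between 8.62% (chromosome 2) and 12.2% (chromosomes 5 and 10) were at least 4-fold higher in treated leaf. Chromosome 6 had 130 root-higher and 144 leaf-higher loci among 1615, while chromosome 5 had 75 and 156 among 1280. Of 148 tested loci with non-coding RNA identifiers, 47 were called root-higher and 14 leaf-higher, shares under the 45.8% and 33.8% of all tested loci. At least 4-fold differences were found at 8 of them (5.41%) toward root, against 6.6% of all loci. Toward leaf there were 3 (2.03%), against 10.1% of all. These counts are small, and whether such loci are measured less precisely than others was not tested. Loci with large organ differences were shorter. The median recovered length was 1278 bases for root-higher, 1362 for leaf-higher and 1711 for loci under 2-fold, and a recovered length can be too small by a whole factor.

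Loci with large organ differences often lay next to each other in the order of identifiers. Among tested loci of the 12 chromosomes, 19.9% of the loci that followed a locus at least 4-fold higher in treated root were themselves in that group, against 6.57% of all. After a locus at least 4-fold higher in treated leaf the share was 16.7%, against 10.2% of all. A leaf-higher locus followed a root-higher one in 7.74% of cases, below the overall 10.2%. Runs of 3 or more root-higher loci numbered 47 and held 167 loci, and runs of 3 or more leaf-higher loci numbered 43 and held 157 loci. The longest root-higher run had 11 loci on chromosome 7, with levels from 5.6 to 109 FPKM in treated root and from 0 to 18.9 FPKM in treated leaf. In untreated plants the differences within this run ranged from 0.0287 to 4.44. A leaf-higher run of 6 loci on chromosome 10 had differences from -9.94 to -6.76 and levels from 0.0234 to 8.29 FPKM in treated root and from 110 to 3904 FPKM in treated leaf. Neighbours can be near-identical copies, between which the counting could split fragments, so the loci of a run are not independent, and no test was made.

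The organ difference was compared between treated and untreated plants over the same 19324 loci that averaged 1 FPKM over all 12 libraries. The question was where root and leaf lay closer in treated than in untreated plants and where they lay further apart. The interaction was called at 13022 loci, 67.4% of those tested. At 7541 of these, or 57.9%, the difference between root and leaf was smaller in size in treated plants, and at 5481 it was larger. Over all loci, called or not, the median size of the difference was 0.678 in treated and 0.805 in untreated plants. With median-of-ratios scaling the counts were 6764 smaller and 4761 larger, and with quantile normalization 6714 and 5312. The direction of the shift, in contrast, depended on scaling. As deposited, 9008 loci (46.6%) shifted toward root and 4014 (20.8%) toward leaf. With median-of-ratios scaling 5684 shifted toward root and 5841 toward leaf, and with quantile normalization 7118 and 4908. The median interaction over all loci was 0.325 as deposited and 0.006 with median-of-ratios scaling.

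At most loci with a called interaction the root level had changed more than the leaf level, at 10286 of 13022 (79.0%). Over all 19324 loci, 48.1% rose and 21.5% fell in root, against 14.8% and 24.4% in leaf. The share of all loci with the larger change in root is not given here, so 79.0% is not shown to be particular to called loci. The share was somewhat higher where the difference narrowed than where it widened. At 6509 of the 7541 narrowed loci (86.3%) the change between treated and untreated plants was larger in root than in leaf. At the 5481 widened loci the same was true of 3777 (68.9%). With median-of-ratios scaling the shares were 86.6% and 64.7%. Across the same loci, treated root and treated leaf correlated at r = 0.603 to 0.619 over 9 pairs, and untreated root and untreated leaf at 0.572 to 0.581 over 9 pairs.

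Root-higher loci were lost more often than gained. At least 4-fold higher levels in root were called at 1264 loci in treated plants and at 1620 in untreated plants, and 753 were common to both, 59.6% of the treated and 46.5% of the untreated list. At least 4-fold higher levels in leaf were called at 1941 loci in treated and 2237 in untreated plants, with 1518 common to both, 78.2% and 67.9% of the lists. With median-of-ratios scaling the root lists held 1158 and 1862 loci and the leaf lists 2062 and 2007, treated first, so the leaf list no longer shrank in treated plants.

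**Figure D5:**
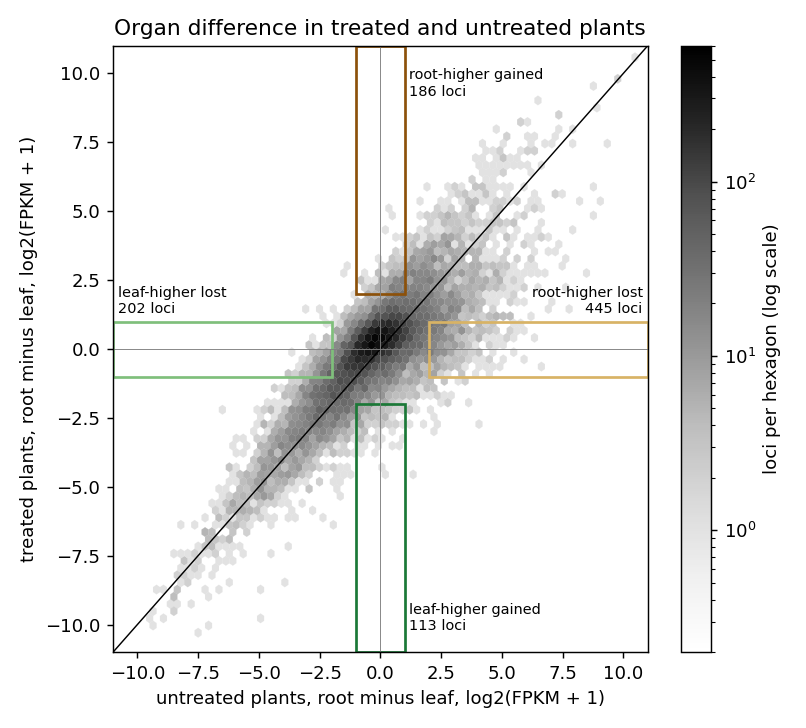
Root minus leaf difference of 19324 loci on the log2(FPKM + 1) scale in untreated plants (x axis) and treated plants (y axis), as hexagons shaded by the number of loci on a log scale; the diagonal marks equal differences. The boxes hold loci with a difference of at least 4-fold in one set of plants and under 2-fold in the other, 445 and 186 for root-higher differences lost and gained in treated plants, and 202 and 113 for leaf-higher differences lost and gained.

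A root-higher difference of at least 4-fold in untreated plants had shrunk to under 2-fold in treated plants at 445 loci. Their median level was 4.94 FPKM in treated root and 3.9 FPKM in treated leaf, against 30.3 FPKM in untreated root and 3.03 FPKM in untreated leaf. In root 442 of them fell with treatment (limma adjusted p under 0.05) and 0 rose, while over all loci 48.1% rose and 21.5% fell in treated against untreated root. In leaf 161 of them rose and 39 fell, while over all loci 14.8% rose and 24.4% fell. The converse, a root-higher difference gained in treated plants, was found at 186 loci. Their medians were 14.0 FPKM in treated root and 1.7 FPKM in treated leaf, against 3.84 FPKM in untreated root and 2.29 FPKM in untreated leaf, and 182 of them rose in root. More root-higher differences were lost than gained under each scaling tried, with 617 lost and 126 gained under median-of-ratios scaling.

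A leaf-higher difference of at least 4-fold was lost in treated plants at 202 loci. Of these, 197 rose in root and 133 fell in leaf. One was gained at 113 loci, of which 91 fell in root and 84 rose in leaf, and at 69 of the 113 the root change was the larger. With median-of-ratios scaling 108 leaf-higher differences were lost and 149 gained, so the order of these counts turned. In each of these classes the loci were chosen on the values described, which are given without a test of the class. The interaction was called at 444 of the 445 loci and at all 186, 202 and 113 loci of the other classes, against 67.4% of all loci. Each class requires the organ difference to change by over 2-fold, so these calls largely follow from the choice of loci and carry no support.

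A smaller group changed sides. At 81 loci root was at least 2-fold higher in untreated plants and leaf at least 2-fold higher in treated plants. Their median level was 2.93 FPKM in treated root and 12.3 FPKM in treated leaf, against 32.1 FPKM in untreated root and 7.37 FPKM in untreated leaf, and 80 fell in root. In leaf 54 of the 81 rose and 3 fell. In the opposite sense 29 loci went over from leaf to root, and all 29 rose in root while 21 fell in leaf. Over all loci 48.1% rose and 21.5% fell in root, and 14.8% rose and 24.4% fell in leaf. Both groups were chosen on the values described, which carry no test.

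The locus of that scheme with the largest shift toward root was Solyc03g071857.1. It had 33.6, 46.3 and 50.7 FPKM in treated root, against 0.0968, 0.326 and 0.153 FPKM in treated leaf, and the groups did not overlap. The organ difference was 5.21 in treated plants (SE 0.156, limma adjusted p = 8.62e-09). In untreated plants it averaged 0.404 ± 0.262 FPKM in root and 0.147 ± 0.208 FPKM in leaf (SD, n = 3 each), with 20 and 8 fragments in all, a difference of 0.29 (limma adjusted p = 0.176). The interaction was 4.92 (SE 0.26, limma adjusted p = 1.12e-08). The tested identifiers just before and after it on chromosome 3 were root-higher in treated plants too, by log2 differences of 3.84 and 4.79.

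The largest shift toward leaf within the scheme was that of Solyc04g051360.3, which had lost nearly all of its root level. It had 0.143, 0.149 and 0.455 FPKM in treated root, against 1.77, 1.0 and 0.568 FPKM in treated leaf. Both organs were low, with 17 fragments in treated root and 87 in treated leaf, and its mean of 0.681 FPKM put it below the limit for the test of treated organs. In untreated plants it averaged 229 ± 1.72 FPKM in root and 1.15 ± 0.473 FPKM in leaf (SD, n = 3 each). The interaction was -7.49 (SE 0.287, limma adjusted p = 8.44e-10). Its change in root was -7.53 (limma adjusted p = 2.39e-11) and its change in leaf was -0.04 (limma adjusted p = 0.901).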

How the data were processed

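Per the labels' protocols, RNA came from 30 mg of ground root or young leaf, and 12 NEBNext Ultra libraries were sequenced. Tools in the submitters' processing notes are fastp, featureCounts and DESeq2, without versions. Aligner, build, gene models and strandedness were not given in the sources used here. The deposited table holds FPKM made by the authors. Library totals and locus lengths were recovered from its digits: in each library 100% of values became whole fragments within 0.001, and fragments summed to at least 99.99% of the total. Since lengths were chosen to make values whole, the first share is no independent check.

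Loci averaging 1 FPKM or more were tested by limma (version 3.58.1, R 4.3.3) with its trend option. The response was log2(FPKM + 1), tests were 2-sided, and Benjamini-Hochberg adjusted p-values under 0.05 were called. Treated and untreated organs were fitted on 6 libraries each. The interaction, the changes between treated and untreated plants within an organ, and the lists and classes compared between them were fitted on 12. Differences are root minus leaf. Gene lists by function could not be evaluated, as identifiers carry no names. Named loci are the 2 largest called differences in each direction without overlap and the largest interaction in each direction, among identifiers of the tomato locus scheme. Loci, groups and lists were chosen with earlier results of these data known. No replicate pair agreed within sampling noise (chi-square over degrees of freedom from 2.21 to 17.4). Fragments were also simulated for the treated comparison (18310 loci tested). The fit found 51.5% of the 1.5-fold differences, 93.9% of those of 2-fold and 100% of those of 4-fold. Of 177 calls, 16 were false, a share above the 0.05 threshold. The simulation took treated leaf levels for both organs, a common spread from treated leaf and few changed loci. Its rates may therefore not hold for the data, where 79.6% of loci were called. Fragment counts were used for depth, shares and limma-voom. Alternatives varied pseudocount, filter, scaling, trend, weights, libraries, block and threshold. Figures used matplotlib 3.10.9.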

Additional observations from a re-analysis of the deposited data

Results flagged for a closer look

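The organ difference was itself different between treated and untreated plants at many loci, by the limma interaction test: 9008 loci shifted toward root and 4014 toward leaf. With median-of-ratios scaling 5684 shifted toward root and 5841 toward leaf, so the order of the counts turned. Among the named loci the interaction was -2.69 for Solyc02g071020.3, -2.92 for Solyc02g070935.1, 4.92 for Solyc03g071857.1 and -7.49 for Solyc04g051360.3, on the log2(FPKM + 1) scale. Groups of 3 libraries are too small to single out a library as an outlier by a rule.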

How the results depend on the processing

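For treated root against treated leaf, 5 counts were recomputed under 19 alternatives and all 95 values stayed within 1.5 times the reported ones. That margin is wide, and the 4-fold counts came near it. With a pseudocount of 0.1, 1799 loci were at least 4-fold higher in root and 2527 in leaf. With limma-voom on fragments the counts were 1849 and 2579, against 1267 and 1943 reported. Leaving out 1 library gave 14632 to 15024 called loci, 8341 to 8673 higher in root, 6215 to 6439 higher in leaf, 1254 to 1287 at least 4-fold higher in root and 1936 to 1951 at least 4-fold higher in leaf. The 4 loci named for that comparison kept direction and call in all 76 values (limma adjusted p up to 3.4e-05). Leaving out treated root replicates 1 and 3 together was chosen after seeing the data. Of 144 values for the organ difference between treated and untreated plants, 4 moved. With a pseudocount of 0.1, 357 leaf-higher differences of 4-fold were lost and 170 gained. With median-of-ratios scaling 108 were lost, and 5684 loci shifted toward root, 49.3% of calls against 69.2% as deposited. Leaving out 1 library gave 8583 to 9287 loci shifted toward root, 3815 to 4074 toward leaf, 7232 to 7668 narrowed and 5204 to 5693 widened. For differences of 4-fold it gave 438 to 463 root-higher lost and 182 to 193 gained, and 199 to 212 leaf-higher lost and 112 to 118 gained. As shares of summed FPKM, the difference between untreated root and untreated leaf in the part held by the root-higher, leaf-higher and under 2-fold loci was 15.2, -25.3 and 4.14 percentage points, against 11.5, -21.9 and 5.4 as shares of fragments. Root and leaf replicates share only a number (r of deviations from the group means from -0.0182 to 0.000711 for equal numbers), and a replicate block left 8656 loci higher in root and 6401 higher in leaf, and changed no call of a named locus. The precision of loci near 1 FPKM is limited by depth, and a p-value from 3 libraries against 3 by permutation cannot go below 0.1.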
